A study of Mus musculus with 6 samples.

Results

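The cytosolic ribosomal protein genes were read across 6 RNA-seq libraries of mouse thyroid cancer cells. They were taken by symbol: Rpl or Rps with a number and an optional a, x or l, together with Rplp0 to Rplp2 and Rpsa. The S6 kinases and rows named as pseudogenes were left out. The rule found 83 of 35027 genes, 51 of the large subunit and 32 of the small subunit, and 78 of them had a mean value of at least 1 and were tested.

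Each ribosome joins a large subunit, which forms the peptide bonds, to a small subunit, which decodes the mRNA. Apart from the ribosomal RNA, each subunit is built of proteins that are nearly all made by a gene of their own in every growing cell. Many of their mRNAs start with a C followed by a pyrimidine run, the 5′ terminal oligopyrimidine (TOP) motif through which mTORC1 signalling regulates their translation. Their abundant short mRNAs have also left many retrocopies, intronless copies pasted elsewhere in the genome.

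Both groups expressed YAPS127A, a constitutively nuclear form of the Hippo pathway effector YAP, in thyroid follicular cells under doxycycline, and the BRAFYAP group also carried the oncogenic BrafV600E allele. Each group held 3 libraries, named here YAP 1, 2 and 3 and BRAFYAP 1, 2 and 6. Per the labels and the study's methods the mice started doxycycline chow at 4 weeks of age, although its results give 3 months. Thyroid-specific Cre recombination switched on both the Rosa26 allele that encodes rtTA and the Kate fluorescent marker and, in BRAFYAP, the Braf allele. About 20000 Kate-positive sorted cells gave each library. A YAP library pooled 3 tumors and a BRAFYAP library held 1 tumor, so pooling and genotype cannot be told apart, although the study's methods describe a single tumor per mouse for each replicate. There was no group without YAPS127A. The comparison asks whether adding BrafV600E changed the level of these mRNAs.

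The deposited values are TPM, scaled so that all columns have the same total, and 26162000 to 36924000 estimated reads lay behind each library. The TPM had been divided by the genomic span of each gene, introns included, so a gene with long introns has a low value for its reads. Among thyroid markers Pax8, a thyroid transcription factor, was at 3.13 to 8.84, while Tshr, the thyrotropin receptor, was at 0.0989 or less in every library. Of the 8 thyroid markers 4 could be tested, and 2 of these were higher in BRAFYAP. Only Epcam had an unadjusted p under 0.05 in a fit across all genes. Epcam was at 1.18, 0.833 and 2.69 in YAP and at 4.02, 3.42 and 15.4 in BRAFYAP. The summed value of 8 macrophage markers was 1511 to 4997 in YAP and 399.0 to 1454 in BRAFYAP. Most of this sum was Lyz2, at 1064 to 3960 in YAP and 297 to 1179 in BRAFYAP. The groups overlapped for Lyz2 but not for Csf1r, Cd68, C1qa, C1qb and C1qc. All 6 macrophage markers that could be tested had an unadjusted p under 0.05 in the same fit, beside 19.9% of all genes. All 6 were lower in BRAFYAP. The part of these cells in the results below was not tested. In bulk samples, fewer cells of a type and less RNA per cell cannot be told apart.

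The TOP motif lies at the transcription start. That start is shown for Rplp2, Rps18 and Rps2, which were among the highest or lowest members in the comparison, for Rps6 and Rplp0, whose values are given in every library, and for Rpl28 as a long run. Each line gives the 30 bases centred on the RefSeq start, 5′ to 3′ on the gene's strand, build GRCm38.p6, and the capitals mark the longest pyrimidine run at the start.
Rps6, chr4:86857353-86857382, minus strand: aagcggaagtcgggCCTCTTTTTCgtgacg
Rplp2, chr7:141447636-141447665, plus strand: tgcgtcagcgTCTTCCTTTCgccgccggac
Rps18, chr17:33955651-33955680, minus strand: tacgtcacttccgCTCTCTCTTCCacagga
Rpl28, chr7:4792950-4792979, plus strand: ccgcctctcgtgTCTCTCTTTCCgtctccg
Rps2, chr17:24720048-24720077, plus strand: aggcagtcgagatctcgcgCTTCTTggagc
Rplp0, chr5:115559452-115559481, plus strand: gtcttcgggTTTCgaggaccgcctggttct

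Of the 61 members with a promoter entry, 32 (52.5%) had a run of at least 6 pyrimidines within 5 bases of the annotated start, against 24.0% of 27025 genes. A C followed by 4 pyrimidines stood exactly at the start in 14 of the 61, or 23.0%, against 3.01% of all genes. The start printed for Rplp0 has only 4 pyrimidines in its run, and that of Rps2 has a run of 6 that begins downstream of it. These are matches of letters on the gene's own strand at the annotated start and no measure of translation.

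No ribosomal protein gene passed the test between BRAFYAP and YAP, and their median difference was small beside the spread between libraries. In limma at an adjusted p under 0.05, 0 of 78 members were called, beside 18 of 7319 genes, which is 0.246% of those tested. At an unadjusted p under 0.05 the count was 0 of 78, beside 19.9% of all genes, and limma-voom on the estimated reads called 0 of 81 members with 2 below that unadjusted p, beside 20.2% of all genes. The calls depended on how libraries were weighted. With limma's default library weights, whose estimation stopped before convergence, 24 of 78 members (30.8%) were called, 22 of them lower in BRAFYAP, beside 42.3% of all genes. With gene-by-gene weights, tried after seeing this, 2 members were called, Rps2 higher and Rps18 lower, beside 19% of all genes. The groups did not overlap for 1 member, beside 28.2% of all genes. The median log2 fold change of the members, BRAFYAP minus YAP on the log2(value + 1) scale, was -0.16, beside -0.06 for all genes, and 16 members were higher and 62 lower. A total of 74 of 78 members lay within 0.5 of 0 on this scale, beside 63.0% of all genes. For 56 members the 95% interval of the difference lay within 1 of 0 on this scale. The 1 added to each value shrinks the differences of members with low values, so for those members this bound is wider than a 2-fold change. For the members outside it, these libraries leave differences of that size possible.

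**Figure D1:**
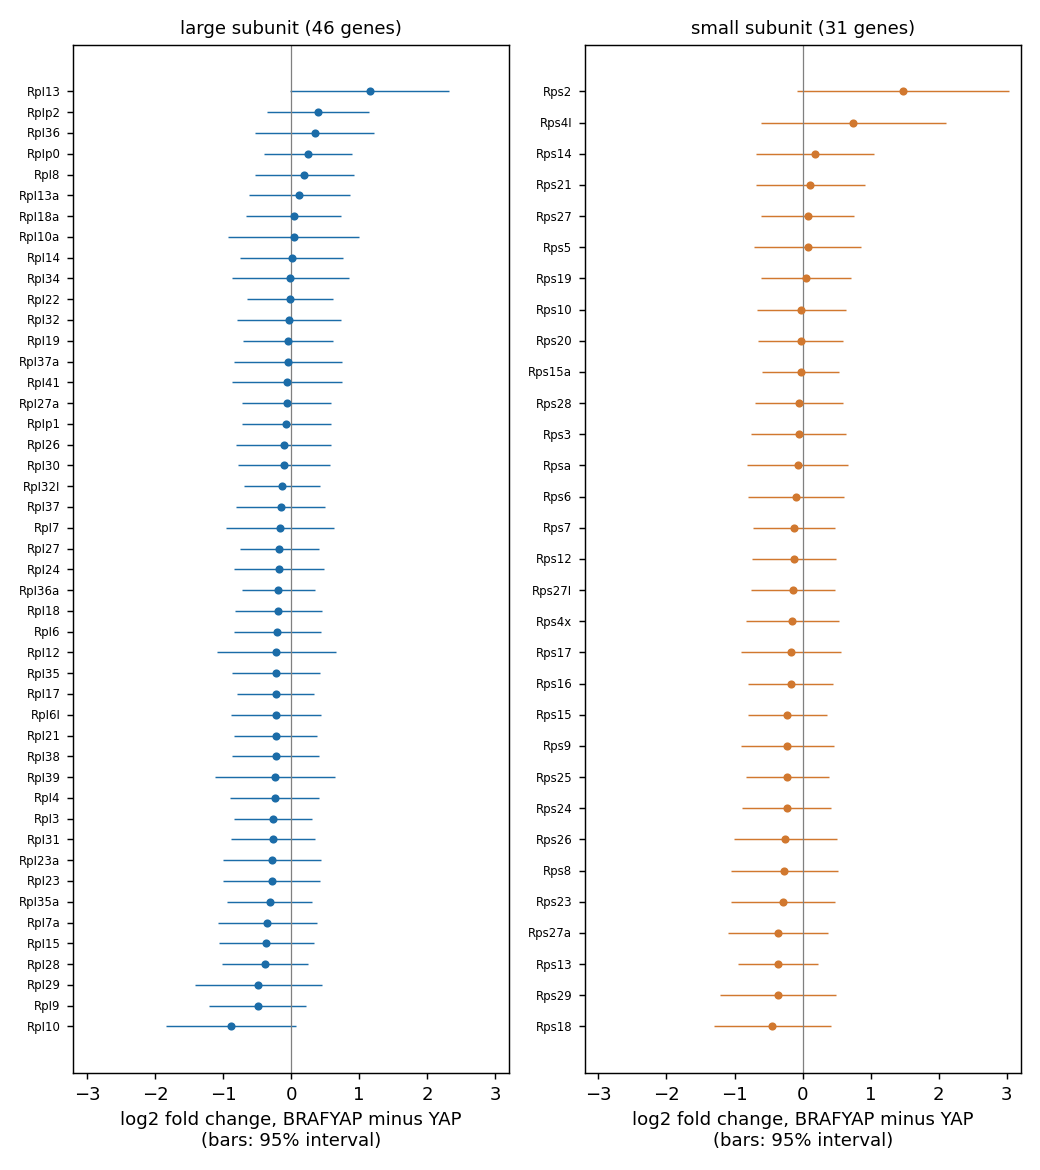
The log2 fold change of 77 of the 78 tested members, BRAFYAP minus YAP, is a point with its 95% interval from limma, large subunit on the left and small subunit on the right. Every interval drawn holds 0, the median over the 78 is -0.16, and Rps2 (1.47), Rpl13 (1.16) and Rpl10 (-0.88) are the farthest from it.

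The share of each library given to these genes also differed by less than the spread between libraries. All 83 members together held 1.56%, 1.05% and 1.48% of the deposited total in YAP 1, 2 and 3. They held 1.16%, 1.36% and 1.40% in BRAFYAP 1, 2 and 6. The groups overlapped, with means of 1.37% ± 0.279 and 1.31% ± 0.129 (SD, n = 3 each). Of the estimated reads, which carry no length division, the share ran from 0.597% in YAP 2 to 1.07% in YAP 1.

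**Figure D2:**
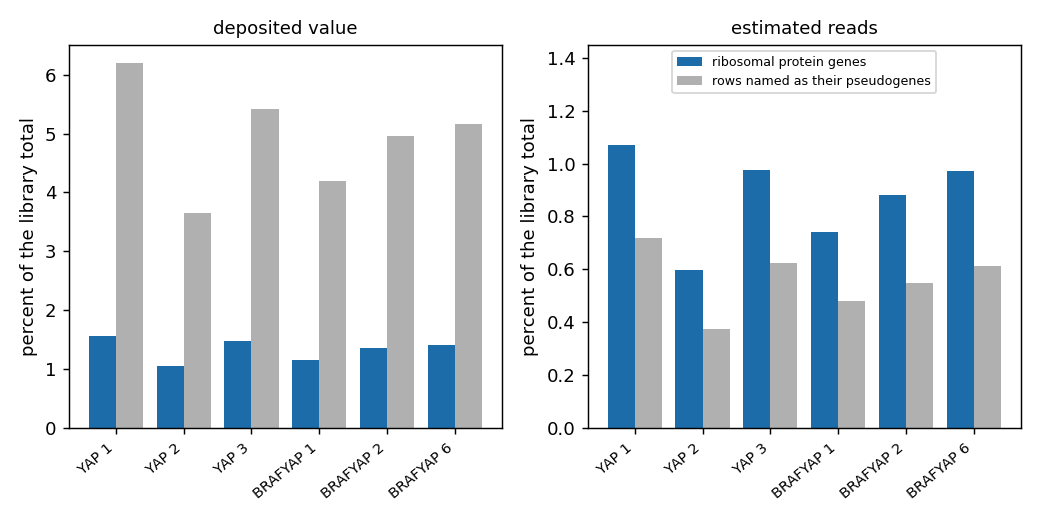
Bars show the percent of each library's total held by the 83 ribosomal protein genes and by the 243 rows named as their pseudogenes, for the deposited values on the left and the estimated reads on the right. The pseudogene rows hold 3.65% to 6.20% of the deposited total, more than the genes in every library, but fewer of the estimated reads than the genes.

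The median member differed more between libraries of the YAP group than between the groups. YAP 2 was the lowest of the 6 libraries for 40 of the 78 members and BRAFYAP 1 for 20. YAP 1 was the highest for 47 members and YAP 3 for 17. The median member was 0.72 higher on the log2 scale in YAP 1 than in YAP 2, with 70 members higher, while the median over all genes for the same pair was -0.02. Between YAP 3 and YAP 2 it was 0.57, with 75 members higher. Within BRAFYAP the spread was smaller, with a median difference of 0.24 between BRAFYAP 2 and BRAFYAP 1. With YAP 2 left out, 0 of 78 members were called at an adjusted p under 0.05 in limma, beside 6.39% of all genes. In that fit 8 of 78 had an unadjusted p under 0.05, beside 26% of all genes. The members' median there was -0.36, beside -0.08 for all genes. The groups did not overlap there for 49 of 78 members, beside 3612 of 7276 genes (49.6%). With YAP 1 left out the members' median was -0.02.

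**Figure D3:**
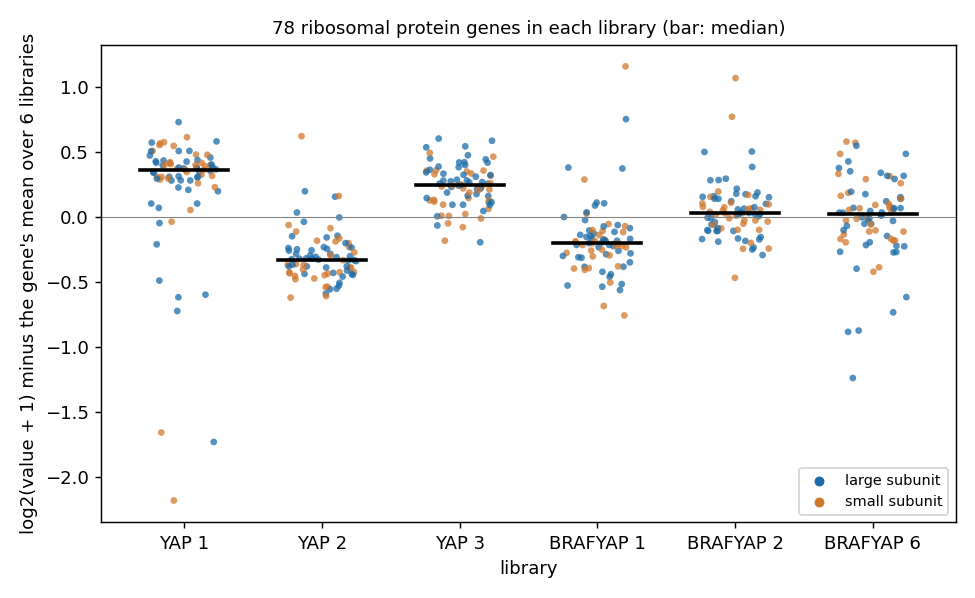
Each point is a ribosomal protein gene in a library, as log2(value + 1) minus that gene's mean over the 6 libraries, coloured by subunit, and the black bars are the medians over 78 genes. The medians are 0.36, -0.33 and 0.24 in YAP 1, 2 and 3 and -0.20, 0.03 and 0.02 in BRAFYAP 1, 2 and 6.

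In both subunits the median member was highest in YAP 1, then YAP 3, and lowest in YAP 2. The median log2 fold change was -0.18 over 46 large subunit members and -0.14 over 32 small subunit members. Rpl41, which encodes the shortest ribosomal protein and had the highest mean value of all members, was at 337.1, 198.7 and 276.6 in YAP 1, 2 and 3. It was at 180.8, 269.7 and 336.6 in BRAFYAP 1, 2 and 6. The groups overlapped, and the log2 fold change was -0.06 (SE 0.34, adjusted p = 0.943 in limma). Rpl8, a core protein of the large subunit next to the peptidyl transferase centre, ranged from 75.9 to 145.9 in YAP and from 112.1 to 118.0 in BRAFYAP.

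The stalk, which recruits the translation factors, is built on Rplp0 with dimers of Rplp1 and Rplp2. Rplp0 was at 169.7, 135.7 and 181.1 in YAP 1, 2 and 3 and at 179.8, 165.3 and 236.1 in BRAFYAP 1, 2 and 6. Its highest library was of BRAFYAP and its lowest of YAP, with overlap, and the log2 fold change was 0.25 (95% interval -0.39 to 0.89), or 0.10 without BRAFYAP 6. Rplp1 had -0.07 (SE 0.28) and Rplp2 0.40 (SE 0.32). Rplp2 was at 4.83 in YAP 1 and between 7.63 and 11.6 in the other libraries, and without YAP 1 its log2 fold change was 0.14.

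In the small subunit, Rps6, the substrate of the S6 kinases, was at 19.0, 9.93 and 16.0 in YAP 1, 2 and 3 and at 13.2, 11.6 and 15.7 in BRAFYAP 1, 2 and 6. All BRAFYAP libraries lay inside the range of YAP, and the log2 fold change was -0.10 (95% interval -0.81 to 0.60). Rpsa, which is also a laminin receptor, had -0.07 (SE 0.31), and Rps27a, made as a fusion with ubiquitin, had -0.36 (SE 0.31), which was -0.14 without YAP 1 and -0.66 without YAP 2. Rps4x, the X-linked copy of the S4 protein, had -0.15 (SE 0.29). The members with the lowest fold changes after Rpl10 were Rpl9 (-0.49), Rpl29 (-0.48) and Rps18 (-0.45), and their groups all overlapped. Without BRAFYAP 6, Rpl9 was at -0.25, Rpl29 at -0.16 and Rps18 at -0.80, while Rps18 was at -0.22 without BRAFYAP 1.

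Rps2, at the mRNA entry of the small subunit, had the largest difference. It was at 8.58, 47.6 and 37.3 in YAP 1, 2 and 3 and at 96.02, 90.1 and 42.0 in BRAFYAP 1, 2 and 6. YAP 1 was far below all others, and BRAFYAP 6 lay inside the range of YAP. The log2 fold change was 1.47 (SE 0.66, adjusted p = 0.268 in limma), and 0.75 without YAP 1. Rpl13, of the large subunit, was at 3.21, 15.0 and 11.2 in YAP and at 22.6, 18.8 and 18.6 in BRAFYAP. Its groups did not overlap, and the log2 fold change was 1.16 (SE 0.49, adjusted p = 0.253 in limma), and 0.58 without YAP 1. Rps4l, annotated as a transcribed processed pseudogene at chr6:148354656-148355598, was also lowest in YAP 1, with 12.2 there and 38.4 to 70.0 in the other libraries, and its log2 fold change of 0.75 (SE 0.58) was 0.10 without YAP 1.

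These genes ran against most other members in YAP 1. Over all genes, 49.0% were higher in YAP 1 than in YAP 2. YAP 1 was the lowest library for 2453 of 7319 genes and the highest for 2183. The 8 members that were lower in YAP 1 than in YAP 2, picked after their values were seen, were Rps2, Rps4l, Rpl13, Rpl10a, Rplp2, Rpl12, Rpl36 and Rpl8. For Rpl10a, Rpl12 and Rpl13 no coding window was found in that gene alone, while Rpl8 and Rps4l had 91.3% and 85.1% of windows to themselves.

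The members lie on 19 chromosomes, 4 of them on X. The spans of 27 overlap the span of another annotated gene on either strand. Whether exons overlap there, and so whether reads are shared, was not tested. GENCODE tags 31 members as hosts of a noncoding RNA. Rps2 lies at chr17:24718116-24721929 and Rpl13 at chr8:123102350-123105244 in mm10, both protein coding.

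Reads of these genes can be assigned to more than 1 place. When each coding sequence was cut into windows of 50 bases, the read length, the median protein-coding member had 10.2% of its windows in no other gene, over 80 members. No window was unique for 27 members, and all were unique for 3. Per the study's methods the reads were quantified with the Partek E/M model, an expectation-maximization method that divides reads with several matches among the genes they match. The tested members with under 50% unique windows had a median of 659.3 estimated reads per exonic kilobase over 63 genes, and those with at least 50% had 5011 over 12 genes. The 14 tested members with at least 50% unique windows, Rps4l and Rpl32l included, had a median log2 fold change of -0.06, beside -0.17 for the other 64, and 0 of the 14 were called in limma, with 0 at an unadjusted p under 0.05. YAP 1 was the highest library for 11 of the 14. Across the 75 tested protein-coding genes, Spearman's rho between the percent of unique windows and the estimated reads per exonic kilobase was 0.56. These genes share libraries and are not independent.

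**Figure D4:**
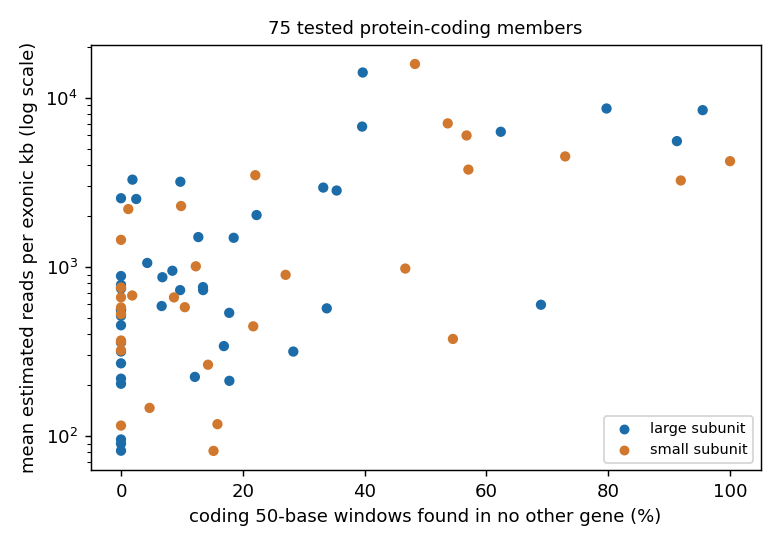
Each point is a tested protein-coding member, with the percent of its 50-base coding windows found in no other gene on the horizontal axis and its mean estimated reads per exonic kilobase on the vertical log axis. Members at the left, with few unique windows, reach down to 81.6 reads per kilobase, and those with at least 50% unique windows go no lower than 374.6.

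Rpl10, the X-linked protein that helps the subunits join, shows how close a copy can be. Over the 642 coding bases it differs at 0 positions from Rpl10-ps1 at chr2:105554201-105554845 and from Rpl10-ps3 at chr9:50344201-50344968. Rpl9, at chr5:65388364-65391444, differs at 1 of 576 bases from Rpl9-ps6 and at 1 from Rpl9-ps4. The coding stretch that holds those differences is shown next. Each of them separates Rpl9 from only 1 of these copies. No coding window of Rpl9 was found in that gene alone, so a window that covers both differences also matches another gene. Capitals mark the base that differs from Rpl9, whose own line is all lower case.
Rpl9: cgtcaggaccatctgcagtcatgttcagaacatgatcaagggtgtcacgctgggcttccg
Rpl9-ps6: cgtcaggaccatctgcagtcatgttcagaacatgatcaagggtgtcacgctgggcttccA
Rpl9-ps4: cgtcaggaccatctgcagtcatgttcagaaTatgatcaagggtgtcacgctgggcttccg

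The row of Rpl10 held 662.6, 312.2 and 600.2 estimated reads in YAP 1, 2 and 3 and 378.4, 416.7 and 137.3 in BRAFYAP 1, 2 and 6. Rpl10-ps1 alone held 4043 to 11026. The log2 fold change of the Rpl10 row, -0.88 (SE 0.40, adjusted p = 0.276 in limma), was -0.48 without BRAFYAP 6, and -0.12 over all libraries when its value was summed with those of its copies. That of Rpl9 went from -0.49 to 0.01, and that of Rps18 from -0.45 to 0.03. Of the 62 members with at least 1 gene that holds 50% or more of their windows, 53 had under 50% of the summed reads in their own row.

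For Rps2 and Rpl13 the sum had the same direction as the row. Rps2 with the genes that share its windows held 1612, 10031 and 7504 reads in YAP 1, 2 and 3 and 15661, 20822 and 19137 in BRAFYAP 1, 2 and 6. On the summed TPM the groups did not overlap, and the log2 fold change was 1.63 (adjusted p = 0.277 in limma). In every library the copy Rps2-ps10 had a higher TPM than Rps2, such as 414.7 against 42.0 in BRAFYAP 6. The summed TPM therefore describe mainly that copy. Rpl13 shares every coding window with Gm12918, a processed pseudogene at chr4:10848420-10849055, which held 1876 reads in YAP 1 and 9647 to 31273 in the others.

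**Figure D5:**
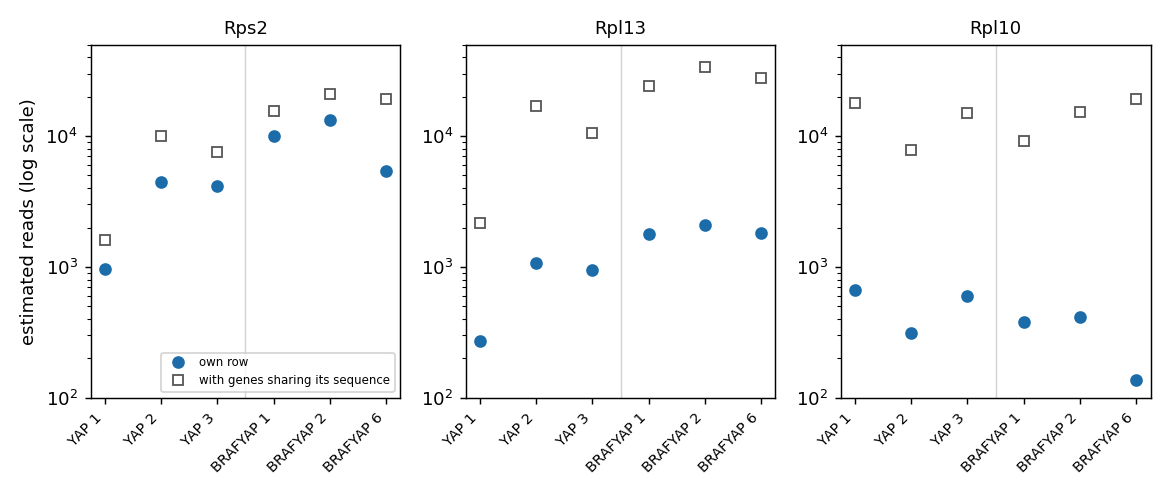
Estimated reads on a log axis for Rps2, Rpl13 and Rpl10 in each library, as filled circles for the gene's own row and open squares for the sum with every gene that holds at least 50% of its coding windows; the vertical line separates YAP from BRAFYAP. YAP 1 is lowest for Rps2 and Rpl13 on both, while the Rpl10 sum has no order by group.

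Among the paralogs named by a final l, Rps27l, a p53 target, had a log2 fold change of -0.14 (SE 0.26). Rpl6l and Rpl32l, which GENCODE annotates as processed pseudogenes, had -0.22 and -0.14. Rpl3l, the striated muscle paralog of Rpl3, was at 0.067 or less, Rpl39l at 0.057 or less, and Rpl10l, a testis paralog, was listed at the offset of 0.0001 in every library. Rpl11 and Rpl5, which bind Mdm2 with 5S ribosomal RNA, fell under the filter with means of 0.667 and 0.608 in YAP and 0.593 and 0.490 in BRAFYAP. Rpl11 was divided by a span of 25164 bases and still had 269.6 to 647.8 estimated reads. Gm10288, which holds 89.7% of the coding windows of Rpl11, had 2380 to 5158. Gm15500, which holds 100% of those of Rpl5, had 4028 to 9727, against 83.4 to 202.2 in the Rpl5 row. Which of these genes the reads came from was not tested.

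The other genes of translation gave 0 calls in limma at an adjusted p under 0.05, beside 0.246% of all genes. The counts at an unadjusted p under 0.05 that follow stand beside 19.9% of all genes. Of 9 ribosomal proteins and related genes outside the symbol rule, 1 had an unadjusted p under 0.05, the median log2 fold change was -0.37, and Rpl7l1 had the lowest value at -0.86 (SE 0.26, adjusted p = 0.144 in limma). Rps3a1, a small subunit protein, had -0.67 and its groups did not overlap. Of 14 elongation factors and other TOP mRNAs, 4 had an unadjusted p under 0.05, with a median of -0.11. Tpt1, a TOP mRNA, was at 14.5, 19.9 and 21.7 in YAP and 27.9, 30.04 and 49.4 in BRAFYAP. Of 30 initiation factors 6 had an unadjusted p under 0.05, 3 in each direction. Eif3b, a core subunit of eIF3, was at 1.58, 4.14 and 2.28 in YAP and 8.53, 10.9 and 9.73 in BRAFYAP, a log2 fold change of 1.60 (SE 0.30, adjusted p = 0.0826 in limma). Eif4a1, the cap-binding complex helicase, had -0.73.

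Of 35 ribosome assembly and RNA polymerase I genes, 1 had an unadjusted p under 0.05, beside 19.9% of all genes. Their median was -0.28, with 26 lower. Of 68 mitochondrial ribosomal proteins, which build a separate ribosome, 8 had an unadjusted p under 0.05 and the median was -0.05. Mrps34 had the largest difference, 2.50 (SE 0.76, adjusted p = 0.144 in limma), with 0.750, 14.02 and 3.45 in YAP and 18.6, 22.5 and 45.4 in BRAFYAP. Of the 3 tested genes with S6 kinase symbols, Rps6kb2 (-0.59) and Rps6ka4 (1.95) went in opposite directions, and neither passed the test. Whether either acts on Rps6 in these cells was not tested. Rps6ka4 was at 0.557 in YAP 1, and its log2 fold change was 1.15 without that library.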

How the data were processed

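RNA from Kate-positive sorted cells was amplified with SMART-Seq v4 (12 cycles), followed by 8 cycles of library PCR and paired reads of 50 bases. Per the labels and methods the authors aligned with STAR 2.6.1d to mm10 and quantified with the Partek E/M model, and the deposited table holds TPM with an offset of 0.0001. Multiplying by gene span made 70.1% to 74.1% of low values whole multiples of 1 read within 0.05, against 20.4% to 24.1% with exonic length, and reads were estimated this way. Since depth is estimated, no counting intervals are given.

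Genes with a mean TPM of at least 1 were tested as log2(TPM + 1) with limma 3.58.1 in R 4.3.3 (empirical Bayes with trend, Benjamini-Hochberg over 7319 genes). Nothing says that libraries of a group came from separate cohorts, so p-values measure the spread between these samples. The fit was tested on simulated data with independent errors and planted changes larger than that of any member. That test does not measure the power to find small changes. Alternatives were the pseudocount, the filter, quantile and median-ratio scaling, the trend, weighting of libraries, each library left out in turn, a replicate block, the length division, voom, scaling by the total of the other genes and sums with pseudogenes. Sums with all sequence-sharing genes, the restriction to unique members and gene-by-gene library weights were chosen after seeing the data. Coordinates come from GENCODE M21 (mm10), a release later than the authors' annotation. Promoters come from RefSeq GRCm38.p6.

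The members and lists were chosen with earlier results of these data known. Named members are the 5 highest and 5 lowest fold changes, the 3 highest means, the stalk, Rpsa, Rps6, Rps27a and the paralogs, and for other lists the 2 extremes each way. A named member among the lowest is not reported here. Marker lists of 8 cell types were summed. In the ranges of their sums, T cell markers reached 2.43, B and plasma cell 0.960, endothelial 2.35, skeletal muscle 3.56, erythroid 27.3, fibroblast 31.4 and thyroid 31.0. A stress list summed to 983.6 to 2435 in YAP and 2577 to 4190 in BRAFYAP.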

Additional observations from a re-analysis of the deposited data

How the results depend on the processing

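No member was called in limma under any alternative except library weighting. With limma's default weights, estimation stopped before convergence and gave YAP 3 a weight of 21.9 against 0.218 to 1.73 for the others. That fit called 24 members (2 higher, 22 lower) and 62 genes of the other lists, beside 3099 genes, or 42.3% of all genes tested. The gene-by-gene weights, chosen after seeing that, ran from 0.299 to 3.03. They called 2 members (Rps2 higher and Rps18 lower) and 20 genes of the other lists, beside 1393 genes, or 19% of all genes tested.

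Over all genes, 18 calls became 1 with a pseudocount of 0.1, 0 with 0.0001, 3 with a minimum mean of 10, 0 with no filter, 79 after quantile normalization (with 1 gene of the other lists), 1 with median-ratio scaling, 1 without the trend, 0 on estimated reads, 47 with exonic length and 0 with voom. Leaving out a library gave 0 to 465 genes, the highest without YAP 2, 0 members, and 0 to 6 genes of the other lists. The members' median then ran from -0.36 to -0.02 and the difference in share from -0.22 to 0.044 percentage points. Summing pseudogene rows moved that difference from -0.056 to -0.374. What caused each of these moves was not tested.

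The replicate block gave 0 calls over all genes. Deviations of libraries 1 and 2 correlated at -0.048 and 0.062 with their same-numbered partners. The labels do not say that the numbers pair animals, and 2 such correlations cannot decide whether they do. With the block Rpl29 turned to 0.010, Rplp1 to 0.050 and Rps27rt to -0.014. Other log2 fold changes that reversed follow. Sums with pseudogene rows gave Rpl9 0.013, and sums with sharing genes gave Rpl9 0.012 and Rps18 0.031. Default weights gave Rpl36 -0.37, Rplp2 -0.10, Rplp0 -0.038, Rpl8 -0.31, Fau -0.077, Rps27rt -0.17 and Rps6ka1 0.067. Gene-by-gene weights gave Rpl36 -0.18, Rpl8 -0.15, Fau -0.035 and Rps27rt -0.092. Quantile normalization gave Rpl41 0.00063 and Fau -0.051, and median-ratio scaling gave Rpl41 0.037, Rplp1 0.024 and Rpsa 0.019. Leaving out each library in turn, Rpl41 ran from -0.26 to 0.19, Rplp1 from -0.23 to 0.070, Rpsa from -0.36 to 0.11, Rps6 from -0.35 to 0.080, Rps4x from -0.39 to 0.013, Rpl8 from -0.0037 to 0.46, Ppan from -0.20 to 0.88, Fau from -0.14 to 0.11 and Rps27rt from -0.088 to 0.43. Of 930 such values for 44 named genes, 845 kept their direction and side of the threshold. Depth was estimated, so how far it limits single genes was not tested.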
